A study of Mus musculus with 79 samples.

Results

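The genes described here are 31 macrophage and antigen presentation genes, chosen by name and all found among the 24033 genes of the deposited count table. They comprise 3 complement genes (C1qa, C1qb, C1qc), 4 Fc receptor genes (Fcer1g, Fcgr1, Fcgr2b, Fcgr3), 6 lysosome and phagocytosis genes (Cd68, Ctss, Lyz2, Laptm5, Lgals3, Gpnmb), 4 MHC class II genes (Cd74, H2-Aa, H2-Ab1, H2-Eb1), 6 surface and signalling receptors (Tyrobp, Trem2, Ptprc, Cd86, Cd14, Tlr2), 5 genes of tissue-resident macrophages (Mrc1, Cd163, Siglec1, Ms4a7, Pf4) and 3 genes of myeloid identity (Aif1, Spi1, Irf8). They were followed in lumbar L4-5 dorsal root ganglia, which hold the cell bodies of the sensory neurons whose axons run in the sciatic nerve. All mice were of the BAC-TRAP BR145-GFP line, a transgenic line made for pulldown of GFP-tagged ribosomes with their bound RNA. The sources used here do not give the promoter that drives GFP in it, nor strain, age or sex. Ganglia were taken from naive mice or 1 h, 12 h, 24 h, 48 h, 72 h or 7 d after sciatic nerve crush; no sham-operated group was analysed here. At each time total ganglion RNA was sequenced as Input, and RNA recovered on beads that carried anti-GFP was sequenced as IP. Input and IP had 7 libraries each in naive mice and at 72 h, 6 each at 12 h and 48 h, 5 each at 1 h and 4 each at 7 d, while 24 h had 5 Input and 4 IP libraries. The labels do not say whether replicates were separate mice, so p-values measure the spread between libraries, which may be partly technical.

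Macrophages live in the ganglion beside the neuron bodies, and more appear there after the axons are cut. C1q starts the classical complement cascade, in which tagged debris and synapses are cleared. Fc receptors bind antibody-coated particles, and the adaptor Fcer1g carries their signal. Engulfed material is degraded in lysosomes, where proteases such as cathepsin S also trim the invariant chain Cd74 from MHC class II molecules so that peptides can be shown to helper T cells. Tyrobp is the signalling adaptor of Trem2, a receptor for lipids and cell debris.

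Because MHC class II genes are known to share a promoter module, and C1q genes lie side by side, 4 promoters are printed first. The sequences are RefSeq's for mouse GRCm38.p6, 5′ to 3′, from 250 bases before to 50 bases after the annotated start. Of the 31 genes, 23 had an entry, and H2-Ab1 was not among them. In the first pair the capitals mark GCAACT, part of the X box, and CTGATTGG, the Y box core; in the second they mark ACTTCCT, the reverse complement of AGGAAGT, a core motif of the ETS factors to which the product of Spi1 belongs. H2-Aa lies at chr17:34287774-34288073 on the minus strand and H2-Eb1 at chr17:34305617-34305916 on the plus strand. C1qb lies at chr4:136886151-136886450 and C1qc at chr4:136892865-136893164, both on the minus strand.
H2-Aa: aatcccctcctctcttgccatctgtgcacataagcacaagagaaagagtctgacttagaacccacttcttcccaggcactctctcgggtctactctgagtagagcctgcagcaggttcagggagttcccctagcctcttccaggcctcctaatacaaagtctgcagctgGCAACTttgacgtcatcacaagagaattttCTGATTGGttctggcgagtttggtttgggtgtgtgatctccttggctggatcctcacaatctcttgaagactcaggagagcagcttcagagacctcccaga
H2-Eb1: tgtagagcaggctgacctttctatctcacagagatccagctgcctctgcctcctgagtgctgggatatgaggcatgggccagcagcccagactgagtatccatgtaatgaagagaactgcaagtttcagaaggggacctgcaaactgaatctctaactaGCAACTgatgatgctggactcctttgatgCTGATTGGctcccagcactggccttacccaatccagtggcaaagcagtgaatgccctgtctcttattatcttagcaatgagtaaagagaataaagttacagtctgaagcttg
C1qb: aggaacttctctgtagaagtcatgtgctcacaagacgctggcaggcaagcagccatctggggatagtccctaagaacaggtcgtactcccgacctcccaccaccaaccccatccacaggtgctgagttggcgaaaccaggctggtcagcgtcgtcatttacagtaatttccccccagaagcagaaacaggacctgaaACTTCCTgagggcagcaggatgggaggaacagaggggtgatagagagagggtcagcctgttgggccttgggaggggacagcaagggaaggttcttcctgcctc
C1qc: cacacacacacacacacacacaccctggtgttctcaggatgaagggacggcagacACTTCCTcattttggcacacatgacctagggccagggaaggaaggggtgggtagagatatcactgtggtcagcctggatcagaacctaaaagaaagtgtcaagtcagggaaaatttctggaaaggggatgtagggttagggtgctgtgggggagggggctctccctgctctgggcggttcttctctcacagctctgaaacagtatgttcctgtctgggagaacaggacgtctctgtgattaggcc

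Searched on both strands, CTGATTGG, which overlaps the CCAAT motif in reverse complement, was in 4.31% of 27025 promoters of this length and in 3 of the 23 (H2-Aa, H2-Eb1, Irf8). GCAACT was in 10.9% of all promoters and in 4 of the 23. The order GCAACT, then 10 to 40 bases, then CTGATTGG occurred in 9 promoters of the whole table, or 0.0333%, with gaps of 24 bases in H2-Aa and 23 in H2-Eb1. The rest of the 9 were H2-Eb2, also a class II gene, and Mrps9, Aldh4a1, Hmgb2, Narf, Gstz1 and Tigd3, which are not. This order was searched after those promoters had been read, so its rarity is a description. AGGAAGT was in 9.57% of all promoters and in 8 of the 23 (C1qb, C1qc, Fcgr1, Ctss, Lyz2, Ptprc, Mrc1, Pf4). A match of letters does not show that a factor binds there.

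Total counts ran from 8737964 to 22221882 in the 40 Input libraries and from 3614942 to 16721527 in the 39 IP libraries. The 31 genes held 0.0522% to 0.2955% of an Input library and 0.0143% to 0.2305% of an IP library. Rn45s, a ribosomal RNA precursor, and Lars2, which often collects ribosomal reads, took over 50% of the counts in 6 IP libraries (2 at 1 h, 2 at 12 h and 2 at 48 h), and IP counts that rest on them are also given without them. In the naive IP group, replicate 1 stood above the rest, with a summed level of the 31 genes of 2430.0 CPM (the usual scaling of read counts to library size) in a group whose median was 823. The share of Rn45s and Lars2 also differed by time. In Input it was 4.70% to 23.6% in naive mice and 1.65% to 2.74% at 7 d. In IP it was 9.86% to 40.2% and 1.37% to 8.16%. Input 1 h replicate 3 had a share of 17.5% and a summed level of the 31 genes of 1607 CPM. The rest of its group had 2.61% to 10.7% and 638 to 814 CPM. Whether this share bears on the time changes was not tested. As a check of the tissue label, the summed level of 10 sensory neuron markers was 11354 to 13992 CPM in naive Input and 5859 to 9786 CPM in naive IP, where 8 of the 10 were lower than in Input and 1 was higher. All levels below are CPM on library sizes scaled by edgeR's trimmed mean of M values (TMM) over all 79 libraries. Changes are log2 differences with their SE from edgeR's quasi-likelihood test, with Benjamini-Hochberg adjustment over all genes tested, called at an adjusted p under 0.05. In whole tissue, fewer cells of a type and less RNA per cell cannot be told apart.

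In Input, every member called at 1 h and 12 h fell, and every member called at 72 h rose. At 1 h, 9 fell (Tyrobp, Trem2, Ptprc, Tlr2, Mrc1, Cd163, Ms4a7, Pf4 and Spi1) and 0 rose, where 5.46% of the 16217 genes tested fell, 4.8% rose and 10.3% changed either way. The median change was -0.60 against 0.01 over all genes. At 12 h, 4 fell (Trem2, Tlr2, Laptm5 and Pf4), where 1.89% of all genes fell, 3.1% rose and 4.98% changed. At 24 h 7 fell and 1, Lgals3, rose (4.29% of all genes fell, 7.26% rose and 11.6% changed). By 48 h 7 rose and 3 fell (18% of all genes rose, 18.1% fell and 36.1% changed). At 72 h 17 rose and 0 fell, against 12.2% of all genes that rose, 11.2% that fell and 23.4% that changed. The median of the 31 was then 0.93 against -0.01. At 7 d 16 rose and 1, Pf4, fell, with a median of 0.87. As 53.5% of all genes changed then, 28.3% rising and 25.1% falling, the total of 17 changed genes lay near the background and the number that rose did not. Over the 6 times together, 29 of 31 differed from naive (68.5% of all genes), the exceptions being Irf8 (adjusted p = 0.051) and Cd14 (adjusted p = 0.24).

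The early Input counts rested on few libraries. The count of 9 at 1 h was 4 without replicate 2 or replicate 7 of the naive group, 1 without replicate 1 or replicate 4 of the 1 h group, 2 without its replicate 2 and 17 without its replicate 3. At 12 h the 4 calls became 0 without naive replicate 5 or 12 h replicate 1 or 2, 1 without naive replicate 2 or 12 h replicate 4 or 6, 2 without naive replicate 7 and 7 without 12 h replicate 3. With a covariate for sex, read from Xist and Ddx3y, 3 were called at 1 h and 0 at 12 h. At 24 h the 8 calls became 5 without naive replicate 2. Of the 1 h calls, that of Tyrobp was lost without naive replicate 2, 5 or 7 or 1 h replicate 1, 2 or 4 (adjusted p = 0.062 to 0.16), that of Ms4a7 without naive replicate 2, 5 or 6 or 1 h replicate 1, 2 or 4 (adjusted p = 0.062 to 0.12) and that of Mrc1 without naive replicate 7 or 1 h replicate 1, 2 or 4 (adjusted p = 0.05 to 0.071). No single library moved the counts at 48 h, 72 h or 7 d by over 1.5 times.

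**Figure D1:**
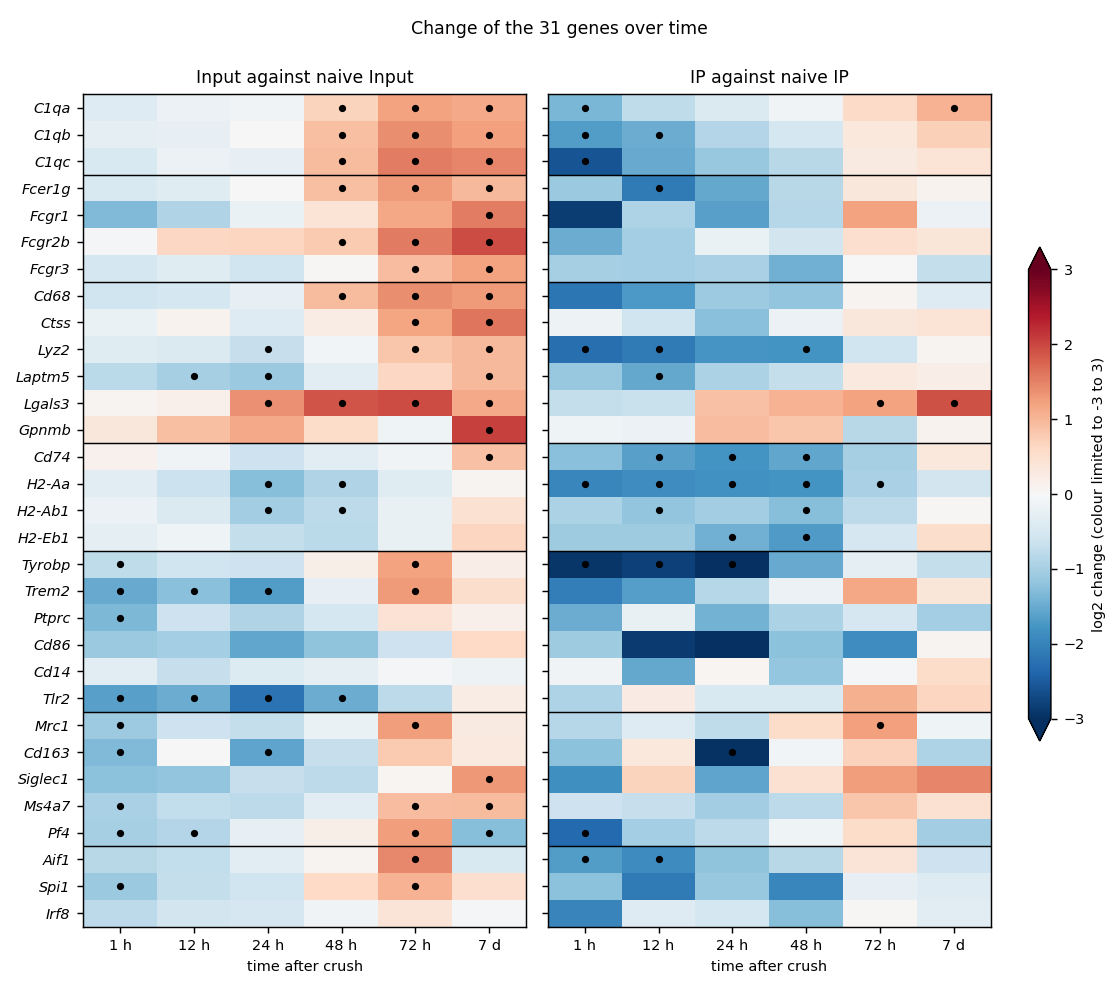
Log2 change against naive of each of the 31 genes (rows, grouped by role) at each time after crush (columns), in Input at left and IP at right; colour is limited to -3 to 3 and a black dot marks an adjusted p under 0.05. In Input the dots lie on lower values in the receptor and resident macrophage rows at 1 h and on higher values in most rows at 72 h and 7 d; in IP most dots lie on lower values between 1 h and 48 h.

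The 3 C1q genes rose together. C1qb, one of the 3 chains of C1q, had a lowest, median and highest level of 28.9, 43.4 and 82.3 CPM in naive Input, 74.6, 95.6 and 112 at 48 h and 79.04, 135 and 178 at 72 h, and single values of 77.2, 81.97, 139 and 167 at 7 d. Of the 72 h libraries 6 of 7 lay above every naive one, and of the 7 d libraries 2 of 4 did. The increase was 0.89 ± 0.24 at 48 h (edgeR adjusted p = 0.003), 1.40 ± 0.23 at 72 h (adjusted p = 9.9e-06) and 1.22 ± 0.26 at 7 d (adjusted p = 0.00012). C1qc rose by 0.96 ± 0.19, 1.54 ± 0.19 and 1.48 ± 0.21 at the same times, and C1qa by 0.66 ± 0.22, 1.21 ± 0.22 and 1.14 ± 0.24. At 1 h, 12 h and 24 h none of the 3 was called, with changes from -0.47 ± 0.20 (C1qc at 1 h) to 0.01 ± 0.25 (C1qb at 24 h). The 1 h group held 1 high library: replicate 3 had 85.1 CPM of C1qb, where the other 4 lay between 27.6 and 37.4.

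All 4 Fc receptor genes rose in Input by 7 d. Fcer1g, the shared gamma chain that carries the activating signal, had 12.5, 18.2 and 33.95 CPM (lowest, median, highest) in naive Input, 31.2, 36.3 and 45.05 at 48 h, 29.4, 49.3 and 62.6 at 72 h, and 22.6, 24.4, 47.3 and 57.5 at 7 d. It rose by 0.90 ± 0.22 at 48 h, 1.28 ± 0.21 at 72 h (adjusted p = 9.4e-06) and 0.97 ± 0.24 at 7 d. Its 7 d libraries overlapped the naive ones in 2 of 4. Fcgr2b, the inhibitory receptor, had 1.79, 4.31 and 8.51 CPM in naive Input and 13.5, 15.8, 18.7 and 20.2 at 7 d. Its increase was 0.79 ± 0.26 at 48 h, 1.57 ± 0.26 at 72 h and 1.96 ± 0.28 at 7 d (adjusted p = 1.8e-07), and all 4 libraries at 7 d lay above every naive one. Its 48 h call was lost without 48 h replicate 4 (adjusted p = 0.057). Fcgr3, an activating receptor, rose by 0.92 ± 0.21 at 72 h and 1.21 ± 0.24 at 7 d. Fcgr1, the high-affinity receptor, rose by 1.54 ± 0.51 at 7 d (adjusted p = 0.01), a call lost without 7 d replicate 2 (adjusted p = 0.11), and its change at 72 h was 1.15 ± 0.46 (adjusted p = 0.064). Fcgr2b and Fcgr3 lie near each other on chromosome 1 and have similar sequence, so reads that match both may be split or lost.

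The lysosome and phagocytosis genes moved at different times. Lgals3, the carbohydrate-binding protein galectin-3, was the earliest of them to rise: it had 41.2, 55.7 and 71.2 CPM in naive Input (lowest, median, highest), 123, 135, 136, 140.4 and 154 at 24 h, 168, 195 and 230.0 at 48 h, 166, 216 and 247 at 72 h and 95.04, 99.5, 125 and 136 at 7 d. Every library from 24 h on lay above every naive library. It rose by 1.37 ± 0.12 at 24 h (adjusted p = 6.6e-12), 1.88 ± 0.12 at 48 h, 1.96 ± 0.12 at 72 h, was still above naive by 1.13 ± 0.13 on day 7, and fell by 0.84 ± 0.13 from 72 h to 7 d (adjusted p = 1.3e-06). Lgals3 is also made by sensory neurons and other cells, so its level is not a measure of macrophages alone. Cd68, a lysosomal membrane glycoprotein of phagocytes, rose by 0.95 ± 0.25 at 48 h, 1.39 ± 0.24 at 72 h and 1.28 ± 0.27 at 7 d.

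Ctss, the protease cathepsin S, had 10.8, 19.3 and 49.98 CPM in naive Input, 40.6, 53.1 and 62.1 at 72 h and 38.01, 47.4, 83.6 and 113 at 7 d. Of these, 6 of 7 libraries at 72 h and 2 of 4 at 7 d were above every naive one. It rose by 1.18 ± 0.34 at 72 h (adjusted p = 0.0081) and 1.60 ± 0.38 at 7 d (adjusted p = 0.00051). Lyz2, the lysozyme of myeloid cells, fell by 0.69 ± 0.20 at 24 h, then rose by 0.84 ± 0.18 at 72 h and 0.97 ± 0.20 at 7 d. Its 24 h call was lost without naive replicate 2 or 5 or 24 h replicate 3 or 5 (adjusted p = 0.055 to 0.063). Laptm5, a lysosomal membrane protein of blood cells, fell by 0.99 ± 0.30 at 12 h and 1.12 ± 0.31 at 24 h and rose by 0.96 ± 0.31 at 7 d. Its 12 h call was lost without naive replicate 2, 5 or 7 or 12 h replicate 1, 2, 4 or 6 (adjusted p = 0.09 to 0.14), and its 24 h call without naive replicate 2 (adjusted p = 0.055). Gpnmb, a glycoprotein of phagocytes laden with lipid or debris, was called only at 7 d: it had 0.295, 1.85 and 4.95 CPM in naive Input, 0.846, 1.52 and 4.60 at 72 h and 6.80, 7.01, 8.32 and 12.001 at 7 d. All 4 libraries at 7 d were above every library of both other groups. Its change was -0.12 ± 0.41 at 72 h and it rose by 2.06 ± 0.44 at 7 d (adjusted p = 1e-04), and by 2.18 ± 0.44 from 72 h to 7 d (adjusted p = 5.5e-05).

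MHC class II genes did not follow that course. H2-Aa, the alpha chain of the class II molecule, had 67.9, 102 and 213 CPM in naive Input (lowest, median, highest), 38.96, 48.1, 49.6, 51.9 and 54.8 at 24 h, 49.2, 60.8 and 80.2 at 48 h, 62.4, 81.97 and 129.6 at 72 h and 78.5, 102, 131 and 184 at 7 d. All 5 libraries at 24 h lay below every naive library. H2-Aa fell by 1.28 ± 0.29 at 24 h (adjusted p = 0.002) and 0.91 ± 0.27 at 48 h, and its changes were -0.37 ± 0.25 at 72 h and 0.09 ± 0.29 at 7 d. H2-Ab1, the beta chain partner, fell by 1.05 ± 0.31 at 24 h and 0.78 ± 0.28 at 48 h. Its 24 h call was lost without naive replicate 2 or 24 h replicate 3 (adjusted p = 0.054 to 0.058), and the 48 h call without naive replicate 2 or 5 or 48 h replicate 1, 2 or 6 (adjusted p = 0.053 to 0.1). H2-Eb1, a second beta chain, was not called against naive at any time, with changes from -0.81 ± 0.34 at 48 h to 0.65 ± 0.37 at 7 d. The H2 genes, here and in the class I list below, are also related in sequence, so reads that match several may be split or lost.

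Cd74, the invariant chain that guides class II molecules to the lysosome, was called in Input only at 7 d. Its levels were 173, 213 and 354 CPM in naive Input, 132, 149, 152, 163 and 202 at 24 h, 159, 226 and 298 at 72 h and 319, 328, 477 and 650.2 at 7 d. It rose by 0.87 ± 0.23 against naive (adjusted p = 0.0018) and by 0.97 ± 0.23 against 72 h (adjusted p = 0.00061). All 4 libraries at 7 d were above every 72 h library, and 2 of the 4 lay within the naive range. Thus at 72 h, when C1q, Fcer1g and Cd68 were high, none of the 4 class II genes was called in either direction.

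**Figure D2:**
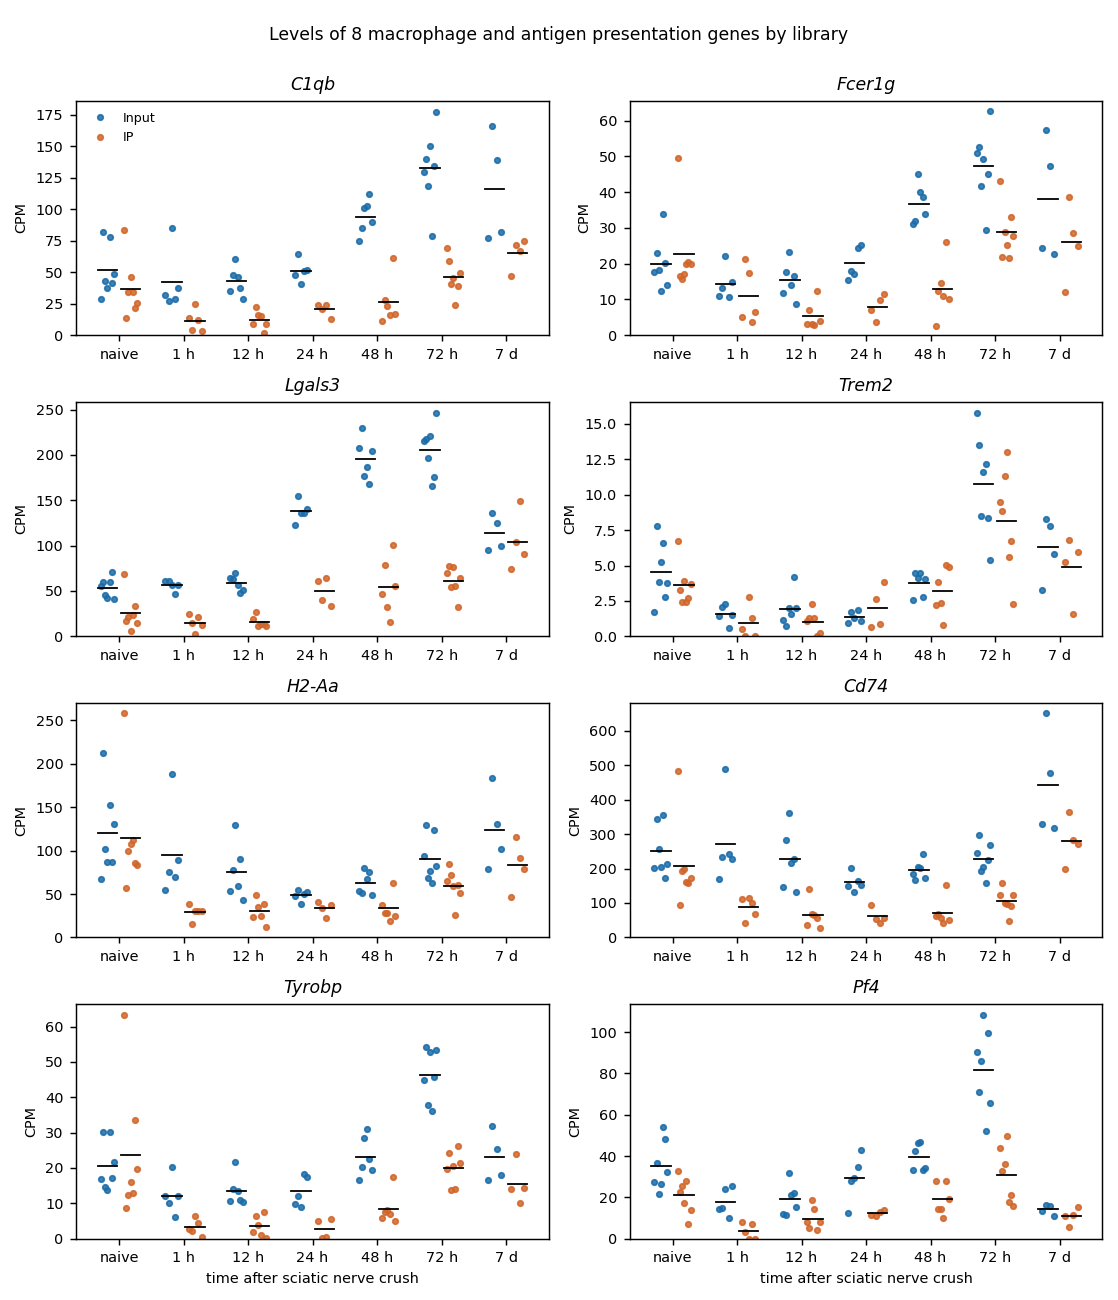
CPM of 8 of the genes in every Input (blue) and IP (orange) library by time after crush, 1 point a library, with a black bar at the group mean; every axis starts at 0 and has its own scale. C1qb and Fcer1g are highest in Input at 72 h and 7 d, Lgals3 is raised from 24 h on, H2-Aa is lowest around 24 h, and Pf4 is highest at 72 h and below naive at 7 d.

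Among the surface and signalling receptors, Trem2 showed both phases of the course. Its level was 1.74, 3.86 and 7.77 CPM in naive Input (lowest, median, highest), 0.566, 1.43, 1.51, 2.06 and 2.31 at 1 h, 0.971, 1.06, 1.32, 1.75 and 1.85 at 24 h, 5.38, 11.6 and 15.8 at 72 h and 3.28, 5.83, 7.77 and 8.30 at 7 d. At both 1 h and 24 h, 3 of 5 libraries lay below every naive one, and at 72 h 6 of 7 lay above. Trem2 fell by 1.52 ± 0.36 at 1 h (adjusted p = 0.011), 1.26 ± 0.34 at 12 h and 1.68 ± 0.37 at 24 h, and rose by 1.29 ± 0.30 at 72 h (adjusted p = 0.0013). The call at 1 h was lost without 1 h replicate 4 (adjusted p = 0.068) and the 12 h call without naive replicate 2 or 5 or 12 h replicate 1, 2 or 4 (adjusted p = 0.056 to 0.082). Tyrobp, its adaptor, had 13.8, 17.2 and 30.2 CPM in naive Input, 36.1, 45.7 and 54.3 at 72 h and 16.5, 18.1, 25.3 and 31.96 at 7 d. Every 72 h library exceeded every naive one. Tyrobp fell by 0.76 ± 0.24 at 1 h, rose by 1.20 ± 0.21 at 72 h (adjusted p = 2.3e-05) and fell by 1.00 ± 0.25 between 72 h and 7 d (adjusted p = 0.00091), with a change of 0.20 ± 0.24 against naive at 7 d.

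Tlr2, a receptor for bacterial lipoproteins, fell at each time to 48 h: 1.40, 4.69 and 5.90 CPM in naive Input, 0.285, 0.324, 0.329, 1.75 and 1.86 at 24 h and 0.983, 1.44 and 2.13 at 48 h. Below the naive range lay 3 of 5 libraries at 24 h and 3 of 6 at 48 h. It fell by 2.22 ± 0.50 at 24 h (adjusted p = 0.0016) and 1.49 ± 0.44 at 48 h, after 1.63 ± 0.47 at 1 h and 1.49 ± 0.45 at 12 h. The 1 h call was lost without naive replicate 2 or 1 h replicate 1 or 4 (adjusted p = 0.055 to 0.078) and the 12 h call without naive replicate 2, 4, 5, 6 or 7 or 12 h replicate 1, 2, 4 or 6 (adjusted p = 0.06 to 0.12). Ptprc, the leukocyte antigen CD45, fell by 1.34 ± 0.45 at 1 h at the edge of the threshold (adjusted p = 0.048) and was called at no other time. That call was lost without naive replicate 2, 5, 6 or 7 or 1 h replicate 1, 2, 4 or 5 (adjusted p = 0.06 to 0.2). Cd86, a co-stimulator of T cells, and Cd14, a co-receptor for lipopolysaccharide, were not called at any time; at 24 h the change of Cd86 was -1.57 ± 0.62 (adjusted p = 0.092). Cd86 was low, with at most 5.02 CPM in any Input library.

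Of the 5 resident macrophage genes 4 fell at 1 h, and at 7 d 2 were above naive and 1 below. Pf4, the chemokine CXCL4, made by platelets and megakaryocytes as well as by macrophages, had 21.4, 32.5 and 53.8 CPM in naive Input (lowest, median, highest), 9.72, 14.3, 14.97, 24.2 and 25.5 at 1 h, 52.3, 85.8 and 108 at 72 h and 11.04, 13.3, 15.995 and 16.2 at 7 d. It fell by 0.98 ± 0.26 at 1 h, a call lost without 1 h replicate 1, 2 or 4 (adjusted p = 0.053 to 0.1). It rose by 1.25 ± 0.23 at 72 h (adjusted p = 7.3e-05) and fell below naive by 1.27 ± 0.29 at 7 d (adjusted p = 0.00028). All 4 libraries at 7 d lay below every naive library and every 72 h library, and it dropped by 2.52 ± 0.30 from 72 h (adjusted p = 6.9e-09). Mrc1, the mannose receptor, had 4.48, 9.24 and 22.5 CPM in naive Input, 21.02, 32.2 and 38.8 at 72 h and 10.1, 14.4, 17.05 and 19.8 at 7 d. At 72 h 6 of 7 libraries lay above every naive one, and the 7 d libraries all lay below the 72 h ones. It fell by 1.09 ± 0.29 at 1 h, rose by 1.26 ± 0.25 at 72 h (adjusted p = 0.00019) and fell by 1.00 ± 0.30 from 72 h to 7 d.

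Siglec1, a sialic acid receptor of tissue macrophages, went the other way, with 0.448, 2.26 and 3.65 CPM in naive Input, 0.670, 1.94 and 3.75 at 72 h and 1.11, 2.76, 6.84 and 9.77 at 7 d. It rose by 1.31 ± 0.52 at 7 d (adjusted p = 0.03), a call lost without naive replicate 1 or 4 or 7 d replicate 2 or 3 (adjusted p = 0.062 to 0.24). Still, 2 of the 4 libraries at 7 d lay within the naive range. Ms4a7, a membrane protein of macrophages, fell by 0.97 ± 0.30 at 1 h and rose by 0.93 ± 0.26 at 72 h and 0.95 ± 0.30 at 7 d. Cd163, the scavenger receptor for haemoglobin, fell by 1.33 ± 0.37 at 1 h and 1.57 ± 0.38 at 24 h, and its changes were 0.78 ± 0.32 at 72 h (adjusted p = 0.069) and 0.29 ± 0.36 at 7 d. Its 1 h call was lost without naive replicate 7 or 1 h replicate 1 or 2 (adjusted p = 0.056 to 0.073).

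Of the myeloid identity genes, Aif1, which encodes the microglia and macrophage marker IBA1, had 15.96, 27.9 and 52.2 CPM in naive Input, 50.02, 78.3 and 95.8 at 72 h and 9.62, 10.8, 24.8 and 34.6 at 7 d. At 72 h 6 of 7 libraries lay above every naive one, and the 7 d libraries all lay below the 72 h ones. It rose by 1.43 ± 0.37 at 72 h (adjusted p = 0.0037) and dropped by 1.89 ± 0.46 from 72 h to 7 d (adjusted p = 0.00081), where it differed from naive by -0.45 ± 0.43 (adjusted p = 0.4). Spi1, the transcription factor PU.1, fell by 1.11 ± 0.32 at 1 h, a call lost without naive replicate 2 or 7 or 1 h replicate 1, 2 or 4 (adjusted p = 0.053 to 0.11), and rose by 1.05 ± 0.27 at 72 h. Irf8, a factor of monocyte and dendritic cell development, was not called, with changes from -0.79 ± 0.37 at 1 h to 0.38 ± 0.33 at 72 h.

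Set directly against 72 h, the 7 d Input libraries thus had 4 genes higher (Gpnmb, Cd74, H2-Eb1, Siglec1) and 5 lower (Lgals3, Tyrobp, Mrc1, Pf4, Aif1), while 26.4% of all genes rose, 23.1% fell and 49.5% changed between these times and the median of the 31 was -0.07. The share of the 31 that changed lay below that background. H2-Eb1 and Siglec1 were near the threshold (adjusted p = 0.047 and 0.04). The call of H2-Eb1 was lost without 72 h replicate 1, 2, 3, 5 or 6 or 7 d replicate 2 or 3 (adjusted p = 0.064 to 0.21), and that of Siglec1 without 72 h replicate 2, 3, 5, 6 or 7 or 7 d replicate 2 or 3 (adjusted p = 0.05 to 0.29).

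In IP every member called from 1 h to 48 h fell, and few were called later. At 1 h 8 fell and 0 rose, where 0.654% of the 18656 genes tested fell and 1.2% changed. At 12 h 9 fell (0.783% fell, 1.67% changed), at 24 h 5 (0.445%, 1.88%) and at 48 h 5 (0.734%, 2.54%), with none higher (0.541%, 0.89%, 1.44% and 1.8% of all genes rose). The median changes were -1.24, -1.07, -1.08 and -0.83, against -0.06, 0.04, -0.05 and -0.09 over all genes. At 72 h 2 rose and 1 fell (1.7% of all genes rose, 0.858% fell and 2.56% changed). At 7 d 2 rose and 0 fell (10.3% rose, 10.5% fell and 20.8% changed), below the background of that time. From 72 h to 7 d 1 rose, Cd74, and 2 fell, Mrc1 and Pf4 (6.86% of all genes rose, 6.35% fell and 13.2% changed). Over the 6 times, 21 of 31 differed from naive (22.1% of all genes).

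Without the 6 libraries of mostly Rn45s and Lars2, the IP counts from 1 h to 48 h, in order, were 7, 6, 6 and 4. Without the high naive replicate 1 the count was 4 at 1 h and 5 at 12 h. At 1 h it was also 4 without replicate 1 or 5 of the 1 h group and 5 without its replicate 2, and at 24 h it was 3 without naive replicate 4 or 7 or 24 h replicate 2, 3 or 4. The sex covariate left 4 at 1 h and 2 at 12 h.

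All 4 MHC class II genes fell in IP at 48 h. H2-Aa had 56.6, 99.6 and 258 CPM in naive IP (lowest, median, highest), 15.8, 30.1, 30.1, 30.5 and 38.4 at 1 h, 11.6, 29.8 and 49.4 at 12 h, 22.3, 33.5, 37.5 and 40.5 at 24 h, 19.1, 28.3 and 62.8 at 48 h and 47.1, 79.1, 91.3 and 116 at 7 d. Every library at 1 h, 12 h and 24 h lay below every naive library. It fell by 1.97 ± 0.32 at 1 h (adjusted p = 0.00044), 1.87 ± 0.30 at 12 h, 1.81 ± 0.35 at 24 h and 1.79 ± 0.30 at 48 h (adjusted p = 4.7e-05). The 12 h call of H2-Aa was lost with the sex covariate. Cd74 had 93.7, 173 and 483 CPM in naive IP, 28.004, 60.1 and 140.3 at 12 h, 42.4, 60.1 and 152 at 48 h and 197, 270.1, 284 and 365 at 7 d. At 12 h and at 48 h 5 of 6 libraries lay below every naive one, and the 7 d libraries all lay above the 72 h ones. It fell by 1.64 ± 0.32 at 12 h, 1.80 ± 0.37 at 24 h and 1.56 ± 0.32 at 48 h (adjusted p = 0.0016), and rose by 1.33 ± 0.34 from 72 h to 7 d (adjusted p = 0.0068). H2-Ab1 fell by 1.17 ± 0.29 at 12 h, a call lost without naive replicate 1 or 12 h replicate 1 or 6 (adjusted p = 0.073 to 0.12). It fell by 1.27 ± 0.29 at 48 h, a call lost without the libraries of mostly Rn45s and Lars2 (adjusted p = 0.067). Its 12 h call was also lost without those libraries, under limma voom and with the sex covariate. H2-Eb1 fell by 1.43 ± 0.40 at 24 h, which was lost without naive replicate 1, 4, 5, 6 or 7 or 24 h replicate 1, 2, 3 or 4 (adjusted p = 0.061 to 0.19), and by 1.69 ± 0.35 at 48 h. At 72 h H2-Aa was still lower, at -0.97 ± 0.27 (adjusted p = 0.04), a call lost without naive replicate 1, 3, 4 or 5 or 72 h replicate 1, 2, 3, 4, 5, 6 or 7 (adjusted p = 0.059 to 0.27).

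Tyrobp showed the largest fitted IP decrease among the called genes at 1 h. Its level was 8.52, 15.9 and 63.3 CPM in naive IP, 0.571, 2.25, 2.76, 4.42 and 6.30 at 1 h, 0.252, 2.85 and 7.61 at 12 h, 0.188, 0.338, 4.88 and 5.40 at 24 h and 13.8, 20.6 and 26.2 at 72 h. All libraries at 1 h, 12 h and 24 h were below every naive one. It fell by 2.91 ± 0.62 at 1 h (adjusted p = 0.0084), 2.80 ± 0.57 at 12 h and 3.13 ± 0.66 at 24 h. C1qc fell by 2.59 ± 0.50 at 1 h (adjusted p = 0.0033), Pf4 by 2.32 ± 0.50 at 1 h (adjusted p = 0.0084), and Fcer1g by 2.12 ± 0.43 at 12 h (adjusted p = 0.0029). The Pf4 call was lost without the libraries of mostly Rn45s and Lars2 (adjusted p = 0.087) and under limma voom (adjusted p = 0.073). Aif1 fell by 1.69 ± 0.42 at 1 h and 1.89 ± 0.39 at 12 h, the first lost without naive replicate 1 or 5 or 1 h replicate 1, 2, 4 or 5 (adjusted p = 0.052 to 0.11).

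The other early IP calls rested on 1 or a few libraries, the high naive replicate 1 among them in every case. C1qa fell by 1.36 ± 0.34 at 1 h, lost without naive replicate 1 or 4 or 1 h replicate 1, 2, 3 or 5 (adjusted p = 0.057 to 0.11). C1qb fell by 1.68 ± 0.42 at 1 h, lost without naive replicate 1 or 4 or 1 h replicate 1, 2, 4 or 5 (adjusted p = 0.064 to 0.13), and by 1.49 ± 0.38 at 12 h, lost without naive replicate 1 or 4 or 12 h replicate 1, 4, 5 or 6 (adjusted p = 0.059 to 0.13). Laptm5 fell by 1.54 ± 0.34 at 12 h, lost without naive replicate 1 (adjusted p = 0.051). Lyz2, an abundant transcript of neutrophils as well as macrophages, fell by 2.27 ± 0.56 at 1 h, lost without naive replicate 1 or 1 h replicate 1, 2 or 5 (adjusted p = 0.082 to 0.11), by 2.12 ± 0.52 at 12 h, lost without naive replicate 1 or 12 h replicate 4 or 6 (adjusted p = 0.059 to 0.11), and by 1.80 ± 0.50 at 48 h, lost without naive replicate 1, 4, 6 or 7 or 48 h replicate 1, 2, 4, 5 or 6 (adjusted p = 0.053 to 0.22). Cd163 fell by 2.97 ± 0.78 at 24 h, lost without naive replicate 1, 3, 4 or 7 or 24 h replicate 2, 3 or 4 (adjusted p = 0.051 to 0.16). C1qa at 1 h, C1qb and Laptm5 at 12 h and Lyz2 at 1 h and 48 h were also lost without the libraries of mostly Rn45s and Lars2. Limma voom lost all the calls listed so far in this paragraph but that of Lyz2 at 12 h. The sex covariate lost all but those of Lyz2 at 48 h and Cd163 at 24 h. The calls of Tyrobp at 1 h, 12 h and 24 h, of C1qc at 1 h, of Fcer1g at 12 h and of Cd74 at 12 h, 24 h and 48 h held in every fit that left out 1 library. Under limma voom, however, the 1 h calls of Tyrobp and C1qc were lost (adjusted p = 0.078 and 0.17). With the sex covariate the 12 h calls of Cd74 and Aif1 were lost (adjusted p = 0.28 and 0.18), as was that of H2-Aa.

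The genes that rose in IP were few. Lgals3 had 6.02, 21.2 and 68.5 CPM in naive IP, 32.2, 63.9 and 77.9 at 72 h and 74.2, 90.3, 104 and 149 at 7 d. All 4 libraries at 7 d were above every naive one, and it rose by 1.90 ± 0.39 (adjusted p = 0.00036). Its 72 h increase of 1.20 ± 0.34 (adjusted p = 0.043) was lost without naive replicate 2, 3, 4, 5 or 7 or 72 h replicate 1, 2, 3, 4 or 7 (adjusted p = 0.055 to 0.11). Mrc1 had 7.88, 16.5 and 31.1 CPM in naive IP and 35.8, 41.9 and 59.3 at 72 h, where all 7 libraries lay above every naive one. It rose by 1.22 ± 0.28 (adjusted p = 0.0063) and fell by 1.34 ± 0.34 from 72 h to 7 d. C1qa rose by 1.05 ± 0.33 at 7 d (adjusted p = 0.018), a call lost without 7 d replicate 2 (adjusted p = 0.075). Fcgr1, Fcgr2b, Fcgr3, Cd68, Ctss, Gpnmb, Trem2, Ptprc, Cd86, Cd14, Tlr2, Siglec1, Ms4a7, Spi1 and Irf8 were called against naive IP at no time. Many of them were low there: Trem2 had 2.40, 3.30 and 6.73 CPM in naive IP and 0, 0, 0.495, 1.28 and 2.80 at 1 h.

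The next comparison set IP against Input at one time. In naive ganglia the 31 genes had a median log2 difference of 0.11, against 0.26 over all genes, and only 2 were called where 46.6% of 19584 genes were, 28.3% higher and 18.3% lower. Ptprc was higher in IP by 1.96 ± 0.49 (adjusted p = 0.00077), with 5.97, 18.1 and 48.5 CPM in IP and 2.47, 3.66 and 15.9 in Input, where 4 of 7 IP libraries lay above every Input one. Lgals3 was lower, with a difference of -1.01 ± 0.27 (adjusted p = 0.0015). The count was 4 without Input replicate 2 or IP replicate 2 or 4, and 5 without Input replicate 5 or IP replicate 1.

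After crush the IP lay below Input for many of them. 12 were lower and 2 higher at 1 h (18.4% of all genes lower, 20.2% higher, 38.6% called), 14 and 3 at 12 h (20.7%, 28.2%, 49%), 7 and 0 at 24 h (13.5%, 19.6%, 33%), 15 and 3 at 48 h (19.2%, 28.7%, 47.9%) and 10 and 1 at 72 h (18.7%, 27.9%, 46.5%). At 7 d 0 were called (11.4%). The medians ran from -0.85 at 48 h to -0.48 at 7 d, where those of all genes lay between 0.06 and 0.30. At 7 d, with 4 libraries on each side, edgeR called 0 of the 31 and 4 had an unadjusted p under 0.05. DESeq2 also called 0, and limma voom called 11, of which 10 were lower in IP. Without the 6 libraries rich in Rn45s and Lars2, 14 genes were called at 1 h, 14 at 12 h and 13 at 48 h. Leaving out IP replicate 1 at 7 d gave 2 calls and IP replicate 2 gave 1.

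The C1q genes were lower in IP at 1 h to 72 h, except C1qc at 24 h; C1qa at 24 h was lost without Input 24 h replicate 2, 4 or 5 or IP 24 h replicate 2 or 4 (adjusted p = 0.085 to 0.2). The log2 difference of IP minus Input was, for C1qb, -1.88 ± 0.39 at 1 h (adjusted p = 7.4e-05), -1.78 ± 0.33 at 48 h and -1.47 ± 0.30 at 72 h (adjusted p = 5.3e-05). At 72 h C1qb had 79.04, 135 and 178 CPM in Input and 24.4, 45.4 and 69.1 in IP, and the ranges did not overlap. Cd74 was lower in IP at the same 5 times, with differences of -1.77 ± 0.30 at 12 h (adjusted p = 1.4e-06) and -1.07 ± 0.27 at 72 h. Lgals3 was lower at every time but 7 d, with differences of -1.83 ± 0.30 at 12 h and -1.71 ± 0.27 at 72 h. Tyrobp was lower in IP from 1 h to 72 h, with a difference of -2.18 ± 0.49 at 24 h (adjusted p = 0.00048). Pf4 was lower at 1 h to 72 h too, with a difference of -1.94 ± 0.41 at 1 h. Its 12 h call was lost without Input 12 h replicate 3 or IP 12 h replicate 1, 2, 5 or 6 (adjusted p = 0.051 to 0.091), and its 12 h and 48 h calls also without the libraries of mostly Rn45s and Lars2 (adjusted p = 0.14 and 0.062). Its 24 h call was lost under limma voom (adjusted p = 0.051).

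A few resident macrophage and leukocyte genes were instead higher in IP. Siglec1 had 0.676, 1.19 and 1.85 CPM in Input and 1.89, 5.67 and 11.1 in IP at 48 h, and was higher in IP by 2.86 ± 0.64 at 12 h (adjusted p = 0.00019, and 0.054 under limma voom), 2.40 ± 0.62 at 48 h and 2.34 ± 0.57 at 72 h (adjusted p = 0.00052). Mrc1 was higher by 1.33 ± 0.29 at 48 h (adjusted p = 0.00013). Ptprc was higher by 2.24 ± 0.54 at 12 h and 1.58 ± 0.53 at 48 h, and by 1.73 ± 0.62 at 1 h, the last lost without Input 1 h replicate 1 or 4 or IP 1 h replicate 2 or 3 (adjusted p = 0.054 to 0.17) and without both IP libraries of mostly Rn45s and Lars2 (adjusted p = 0.83). So Siglec1 and Mrc1 lay above Input at 48 h while C1q, Cd74 and Tyrobp lay below it in the same libraries.

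**Figure D3:**
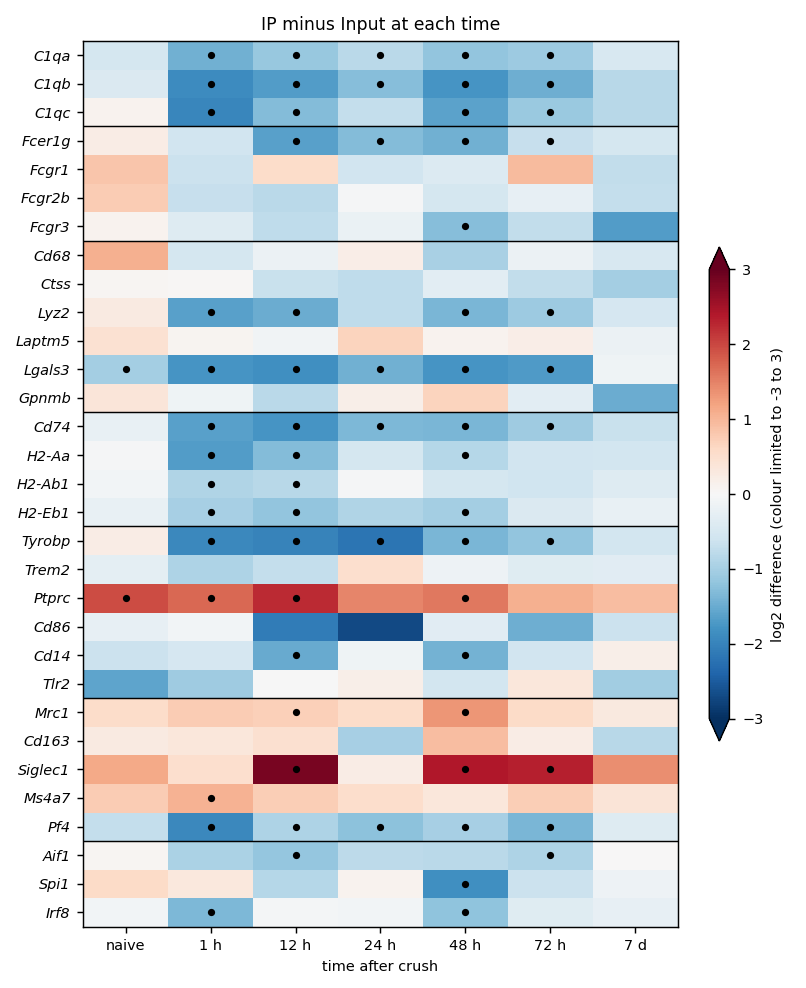
Log2 difference of IP minus Input for each of the 31 genes (rows, grouped by role) at each time (columns); colour is limited to -3 to 3 and a black dot marks an adjusted p under 0.05. The C1q rows, Cd74, Tyrobp, Lgals3 and Pf4 are lower in IP at most times after crush, Siglec1 and Ptprc are higher at several times, and no gene is marked at 7 d.

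A test of whether the response to crush differed between the fractions over the 6 times called 5 of the 31, where 8.28% of all genes were called. They were Tyrobp (adjusted p = 0.013), Fcer1g (0.031), C1qc (0.035), Lgals3 (0.037) and Cd74 (0.046). For the first 3 the IP change lay further below naive at 1 h to 24 h than the Input change did. The count was 8 without IP 48 h replicate 5, 2 without Input naive replicate 4, Input 7 d replicate 1 or 4 or IP naive replicate 1, and 3 without Input naive replicate 1, 6 or 7, Input 1 h replicate 3, IP naive replicate 4 or IP 7 d replicate 2 or 3. Cd74 lost its call in 42 of the 79 fits that left out 1 library. The remaining 26 genes were not called, so a rise in one fraction with none called in the other was not shown to differ for them.

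Other genes of the same pathways were counted from lists set up by name, beside the shares of all genes tested in Input that rose or fell. Those shares were 18% and 18.1% at 48 h, 12.2% and 11.2% at 72 h, and 28.3% and 25.1% at 7 d. Of 21 other lysosome genes tested in Input, 7 rose at 48 h, 9 at 72 h and 17 at 7 d, with 1 that fell at each of the last 2 times. Their summed level was 2620.1 to 2982 CPM in naive Input and 7581 to 7884 at 7 d. Ctsb, the protease cathepsin B, changed by 2.03 (adjusted p = 2.2e-16), and Grn, which encodes progranulin, by 1.73 (adjusted p = 9.8e-13). These genes are expressed in neurons and glia too. In IP 9 of 22 rose at 7 d, beside 10.3% of all genes, Ctsb by 1.43 (adjusted p = 2e-07).

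The next counts are again read against 12.2% of all genes that rose and 11.2% that fell at 72 h, and 28.3% and 25.1% at 7 d. Of 15 MHC class I genes, 9 rose and 2 fell in Input at 7 d, beside 1 called at 48 h; H2-D1, a class I heavy chain, changed by 1.22 (adjusted p = 5.1e-05) and Tap2, a peptide transporter subunit, by 1.09 (adjusted p = 5e-06). Among other class II pathway genes, 1 of 13 rose and 1 fell at 7 d. Among 16 other complement genes, 6 rose at 72 h and 9 at 7 d. C4b, cleaved after C1q binds, changed by 2.12 (adjusted p = 1.2e-10) at 7 d, and Cfp, which encodes properdin, by 2.07 (adjusted p = 1.3e-10) at 72 h. Of 14 Fc receptor signalling genes, 6 rose at 72 h and 2 at 7 d, the latter a smaller share than over all genes.

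Of 41 other macrophage genes, 6 fell and 0 rose in Input at 1 h, 17 rose and 2 fell at 72 h, and 13 rose and 3 fell at 7 d. Over all genes 5.46% fell at 1 h, 12.2% rose at 72 h and 28.3% rose at 7 d, where 53.5% changed, so the 7 d count of this list lay near or below the background. Cbr2, a carbonyl reductase of resident macrophages, changed by 2.42 (adjusted p = 2e-12) at 72 h and by -1.49 (adjusted p = 2.1e-06) from 72 h to 7 d. Csf1r, the receptor for the macrophage growth factor Csf1, changed by 1.38 (adjusted p = 7.3e-06) at 7 d. Of 9 genes often used for microglia, 5 rose at 7 d, Cx3cr1 by 1.91 (adjusted p = 4.1e-05) and Fcrls by 1.95 (adjusted p = 8e-09), and of 11 genes of lipid-laden macrophages 5 rose and 2 fell, Plin2, a lipid droplet protein, rising by 2.46 (adjusted p = 2.8e-22).

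Markers of other cells moved with some of these results. When 9 of the 31 genes fell in Input at 1 h, 6 of 10 fibroblast markers and 4 of 12 neutrophil markers fell as well, and none rose, where 5.46% of all genes fell. Summed over the list, fibroblast markers were at 607 to 1344 CPM in naive Input, 399 to 526 at 1 h, 389 to 459 at 24 h and 655 to 1075 at 72 h. Neutrophil markers were at 92.1 to 1126 CPM in naive Input, 13.5 to 159.7 at 1 h, 198 to 977 at 72 h and 26.1 to 60.4 at 7 d. In IP, 5 of 10 fibroblast markers and 6 of 10 Schwann cell and myelin genes fell at 12 h beside the macrophage genes. Of all genes tested in IP, 0.783% fell and 1.67% changed at that time. The neutrophil sum reached 1800.3 CPM in naive IP, in replicate 1. The part of these cells in the results was not tested. Several members, Lyz2, Fcer1g, Tyrobp, Cd14 and Tlr2 among them, are also expressed by neutrophils, which cannot be told apart from macrophages by those genes.

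At 7 d in Input, where 25.1% of all genes fell and 28.3% rose, 5 of 12 neutrophil, 3 of 6 B cell, 5 of 6 mast cell, 3 of 3 red cell and 1 of 9 T and NK cell genes fell. Of those lists, 1 mast cell gene and 1 T and NK cell gene rose, and S100a8, a neutrophil alarmin, changed by -3.66 (adjusted p = 0.00081). Summed levels at 7 d overlapped those of naive Input for mast cell markers (37.7 to 58.3 against 29.3 to 53.5 CPM) and for T and NK cell markers (5.81 to 19.4 against 5.33 to 23.1 CPM). They lay below naive for B cell markers (2.53 to 3.89 against 3.92 to 26.3 CPM). Of 8 satellite glia genes 4 rose and 1 fell, near the 53.5% of all genes that changed, and their sum stayed within the naive range (1073 to 1334 against 817 to 1492 CPM). The part of these cells in the 7 d results was not tested. Of 8 dendritic cell genes, 3 rose, near the 28.3% of all genes that did, Zbtb46 by 1.81 (adjusted p = 2.7e-06). The sum of the 8 was 37.8 to 48.05 CPM in naive Input and 101 to 119 at 7 d. In naive IP it was 51.3 to 82.2 CPM, above naive Input. Which cells held these transcripts was not tested, so the sum is not a measure of dendritic cells alone. B cells, which also carry class II, had a marker sum of at most 26.3 CPM in any Input library. In IP their sum was 2.91 to 67.4 CPM in naive mice and 3.96 to 22.4 CPM at 1 h. The markers Pax5, Blk and Fcrla were at 0 in some groups. The part of B cells in the class II results was not tested. Of 12 cell division genes 4 rose in Input at 48 h and 4 at 72 h, where 18% and 12.2% of all genes rose. Their sums were 36.7 to 102 CPM in naive Input and 79.8 to 119 at 72 h. From 72 h to 7 d 7 of them fell, where 23.1% of all genes fell. Which cells divided was not tested.

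**Figure D4:**
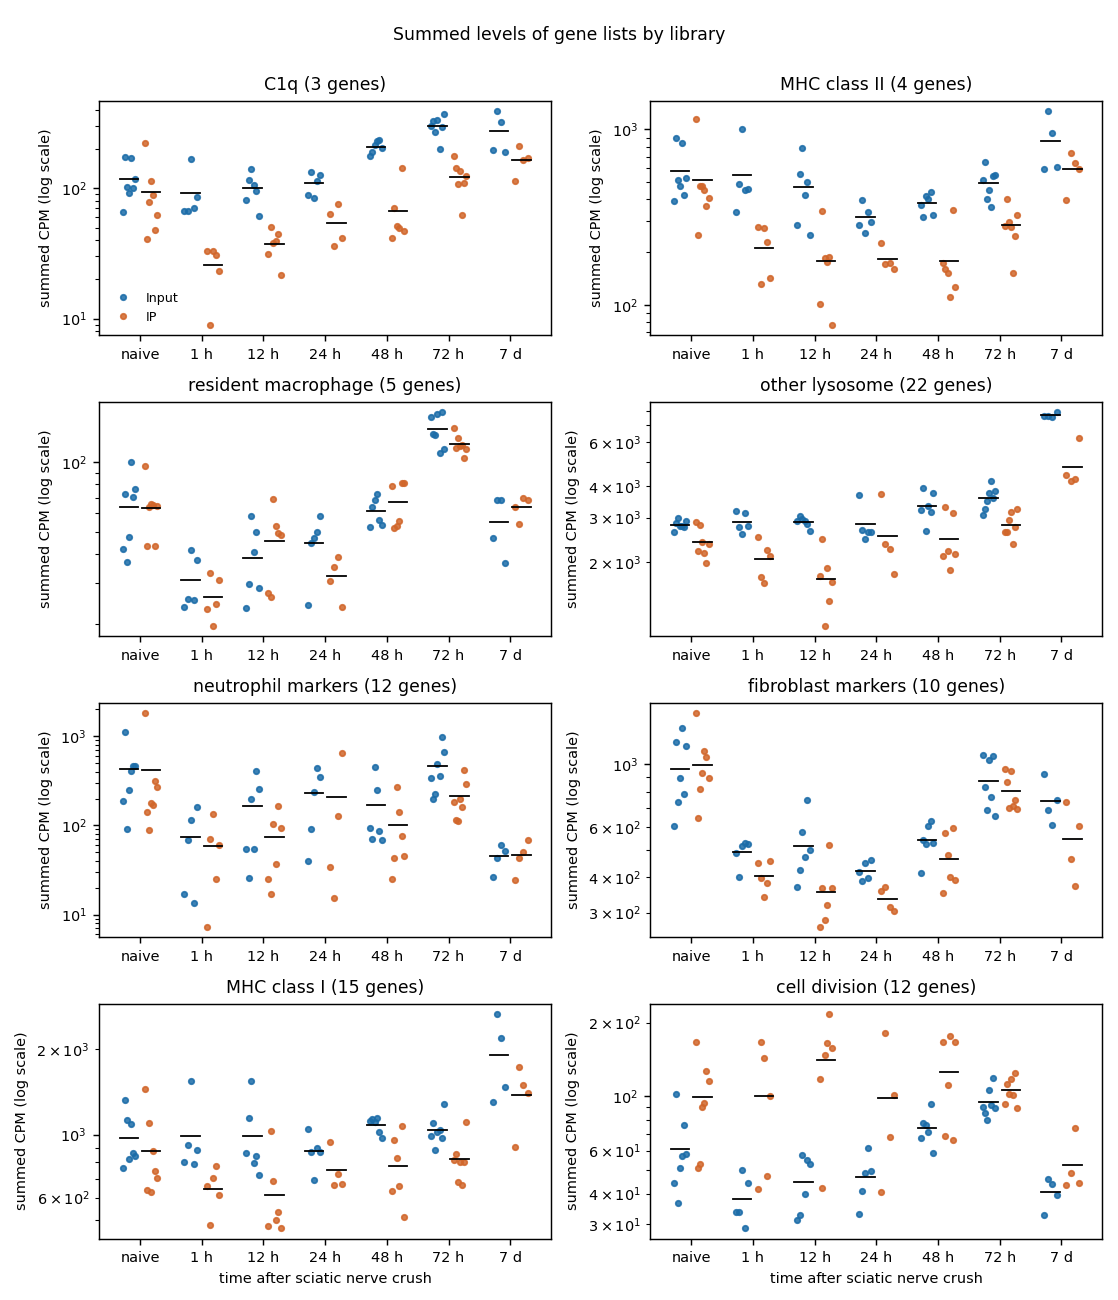
Summed CPM of 8 gene lists in every Input (blue) and IP (orange) library by time after crush, on log axes, with a black bar at the group mean. C1q sums are highest in Input at 72 h and 7 d, resident macrophage sums peak at 72 h, other lysosome sums rise sharply at 7 d, fibroblast sums dip from 1 h to 48 h, and neutrophil sums spread widely and are low at 7 d.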

How the data were processed

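Gene counts were deposited by the authors as 1 table of whole-number read counts per gene, unnormalized, for 79 libraries of L4-5 ganglion RNA (40 Input, 39 IP). The submitters' processing notes name bcl2fastq 2.17, STAR, HTSeq and the mouse build GRCm38/mm10; the sources used here give no strand setting. The labels name SMART-Seq v4 cDNA, Nextera XT tagmentation and paired reads of 75 bp. Of 24060 rows, 27 whose names had become dates were removed, with 0.0346% to 0.214% of the counts. No 2 of 192 library pairs within a group were identical.

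Counts were fitted with edgeR 4.0.16 (R 4.3.3; TMM, filterByExpr, robust quasi-likelihood test, classic option): 7 Input groups (16217 genes), 7 IP groups (18656) or all 14 (19584), with Benjamini-Hochberg adjustment and calls under 0.05. All 31 genes passed the filter in each. Fits were tested on simulated data. edgeR's newer quasi-likelihood option failed the simulated IP check, so the classic option was used for the main fits. The plan had not named the option. Alternatives were other size factors, no filter, DESeq2 1.42.0, limma 3.58.1 voom, a sex covariate, a replicate block and libraries left out. All 31 genes are named; of other lists, up to 4 per comparison of smallest adjusted p. Genes, lists and the promoter motifs were chosen with earlier results of these data known. Read counts include PCR copies, so they are not counts of molecules.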

Additional observations from a re-analysis of the deposited data

Results flagged for a closer look

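Of 434 sets of values, 1 for each of the 31 genes in each group of libraries, 28 (6.45%) held a library whose gap to the nearest of the others, as a share of the range, exceeded Dixon's 95% value on the log2(CPM + 1) scale. Chance flags about 1 set in 20, so the total lies near what chance gives; 20 libraries were involved. In each case the value is given beside the range of the other libraries of its group.

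Input 1 h replicate 3 had C1qb at 85.1 CPM, above the 27.6 to 37.4 CPM of the rest of its group, and C1qc at 32.4 CPM, above the 17.4 to 19.9 CPM of the rest of its group, and Fcgr2b at 8.77 CPM, above the 2.88 to 3.84 CPM of the rest of its group. IP 7 d replicate 2 had C1qc at 65.03 CPM, above the 36.5 to 39.2 CPM of the rest of its group, and Tlr2 at 8.51 CPM, above the 0.0754 to 0.558 CPM of the rest of its group. IP naive replicate 1 had Fcer1g at 49.6 CPM, above the 15.7 to 20.4 CPM of the rest of its group, and Lyz2 at 353 CPM, above the 34.996 to 88.4 CPM of the rest of its group, and Cd86 at 8.08 CPM, above the 0 to 1.05 CPM of the rest of its group. IP 1 h replicate 2 had Lyz2 at 3.38 CPM, below the 20.03 to 34.97 CPM of the rest of its group, and H2-Aa at 15.8 CPM, below the 30.1 to 38.4 CPM of the rest of its group. Input 1 h replicate 4 had Lgals3 at 46.9 CPM, below the 56.8 to 60.9 CPM of the rest of its group, and Gpnmb at 0.236 CPM, below the 2.77 to 4.17 CPM of the rest of its group. IP 7 d replicate 1 had H2-Ab1 at 84.4 CPM, below the 157 to 176 CPM of the rest of its group, and Siglec1 at 6.92 CPM, below the 14.6 to 16.9 CPM of the rest of its group.

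C1qa in IP 72 h replicate 5 was at 19.1 CPM, below the 34.03 to 46.4 CPM of its group. Fcgr1 in IP 12 h replicate 5 was at 8.30 CPM, above the 0.371 to 1.51 CPM of its group. Fcgr1 in IP 24 h replicate 3 was at 5.24 CPM, above the 0 to 0.334 CPM of its group. Fcgr2b in Input 48 h replicate 4 was at 11.1 CPM, above the 6.92 to 7.51 CPM of its group. Fcgr3 in Input 7 d replicate 2 was at 35.9 CPM, above the 21.95 to 23.4 CPM of its group. Lgals3 in IP 72 h replicate 6 was at 32.2 CPM, below the 54.5 to 77.9 CPM of its group. Gpnmb in Input 48 h replicate 3 was at 1.13 CPM, below the 2.92 to 4.54 CPM of its group. Cd74 in IP 48 h replicate 5 was at 152 CPM, above the 42.4 to 66.995 CPM of its group. Cd86 in IP 12 h replicate 1 was at 0.967 CPM, above the 0 to 0.205 CPM of its group. Cd86 in IP 24 h replicate 1 was at 0.268 CPM, and the other libraries of its group were at 0. Tlr2 in Input naive replicate 1 was at 1.40 CPM, below the 3.47 to 5.90 CPM of its group. Tlr2 in IP 12 h replicate 3 was at 6.97 CPM, above the 0 to 0.757 CPM of its group. Aif1 in Input 12 h replicate 3 was at 46.1 CPM, above the 9.97 to 13.98 CPM of its group. Spi1 in Input 72 h replicate 5 was at 7.93 CPM, below the 12.8 to 17.6 CPM of its group.

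The response to crush differed between IP and Input, by a test of the 6 differences together, for Tyrobp (edgeR adjusted p = 0.013), Fcer1g (adjusted p = 0.031), C1qc (adjusted p = 0.035), Lgals3 (adjusted p = 0.037) and Cd74 (adjusted p = 0.046). At 12 h Tyrobp changed by -2.80 ± 0.57 in IP and -0.59 ± 0.22 in Input, and Cd74 by -1.64 ± 0.32 and -0.11 ± 0.21. At 7 d Lgals3 changed by 1.90 ± 0.39 in IP and 1.13 ± 0.13 in Input. At 72 h the order was the reverse, with the smaller increase of Lgals3 in IP.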

How the results depend on the processing

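Counts of called genes moved most at the early times and in IP. Limma voom called 5 at 1 h and 2 at 12 h in Input, against 9 and 4 by edgeR; in IP it called 3 at 1 h, 3 at 24 h, 7 at 7 d and 9 for 7 d against 72 h, against 8, 5, 2 and 3; it called 11 for IP against Input at 7 d and 3 for the difference in response. The sex covariate gave 3 at 1 h and 0 at 12 h in Input, and 4 at 1 h and 2 at 12 h in IP. DESeq2 called 13 at 1 h and 9 at 24 h in IP, and 6 for naive IP against Input, as did DESeq2-type size factors in edgeR. With no filter on low counts, 1 was called in IP at 72 h. edgeR's newer quasi-likelihood option, tried after the data were seen, gave 6 for IP at 7 d against 72 h, 6 for naive IP against Input and 1 for IP against Input at 7 d. The causes were not tested.

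Leaving out 1 library at a time gave, in order of time, 1 to 17, 0 to 7, 5 to 10, 9 to 13, 17 to 19, 15 to 18 calls in Input and 4 to 10, 5 to 10, 3 to 5, 4 to 5, 1 to 3, 1 to 3 in IP. For 7 d against 72 h it gave 7 to 10 in Input and 2 to 4 in IP, and over the 6 times 28 to 30 and 19 to 22. IP against Input gave 2 to 5, 10 to 14, 15 to 17, 5 to 10, 15 to 19, 10 to 13, 0 to 2 from naive to 7 d, and the difference in response 2 to 8. In IP at 72 h the 3 calls became 1 without naive replicate 3, 4 or 5 or 72 h replicate 1, 2, 3, 4 or 7, and at 7 d the 2 became 1 without 7 d replicate 2.

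Whether replicate numbers pair IP with Input libraries was not settled. Same-numbered IP and Input deviations correlated over 0.1 in 9 of 39 pairs, against 7 of 192 pairs of different numbers. The median r was 0.058 against -0.012. Of 39 IP libraries, 21 correlated best with their own number, among the 4 to 7 Input libraries of their time. The main fits of IP against Input ignored replicate numbers, so a partial pairing was left out of them. The replicate block gave 2 calls at 12 h in Input and 2 for IP against Input at 7 d; every other count stayed within 1.5 times. Pf4 in IP against Input at 24 h was among the calls lost with the block (adjusted p = 0.12).

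Of 233 calls, 29, 21 and 5 came from the tests over the 6 times in Input, in IP and between them, which give no direction. No other call reversed its direction under any alternative. Of 473 changes that were not called, 3 to 49 changed sign, depending on the alternative. Of the 233 calls, 196 held under voom, 208 with the sex covariate, 211 without the libraries of mostly Rn45s and Lars2, 215 with the replicate block and 223 to 231 under the other 5. Depth limits the low genes in IP most, since libraries there held as few as 3614942 counts; Tlr2, Cd86, Gpnmb and Fcgr1 had few counts.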
